A study of Saccharomyces cerevisiae with 10 samples.

Results

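The data come from gPAR-CLIP in yeast (Saccharomyces cerevisiae). Living cells take up 4-thiouracil, ultraviolet light links RNA that carries it to proteins in contact, and the short RNA pieces held by protein are sequenced. Stretches called as bound are termed clusters. The comparison described here set the clusters of total RNA against those of polyA RNA, both from log-phase cells in SD (synthetic defined) medium and both from the light fraction, the top 600 µL of a 15 to 50% sucrose gradient. The total RNA list held 51574 clusters and the polyA list 61035, together 112609 of the 185005 clusters deposited for the series. They stand for 4 of its 10 samples, chosen by the labels for RNA, fraction and medium. All groups used here came from the wild-type strain BY4742, labelled as MATa with his3-delta-1 and with leu2-delta-0, and also with lys2-delta-0 and ura3-delta-0, grown at 30 °C with 200 µM 4-thiouracil and irradiated 4 times with 150 mJ/cm2 at 365 nm. The polyA groups starved of glucose or nitrogen for 2 h, with 33345 and 38936 clusters, are set beside as further polyA lists. Each group has 1 list, which the labels name for both replicates and which holds no value per replicate. How the replicates were joined is not known here. No difference below therefore has a replicate check, and no p-value is given. Intervals are 95% intervals that cover counting error only.

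Most yeast mRNAs carry a polyA tail, to which the polyA-binding protein binds, and oligo(dT) beads catch RNA through that tail. Transfer RNA, ribosomal RNA, small nucleolar RNA (snoRNA) and spliceosomal RNA carry no long tail in their mature form and are found in an oligo(dT) eluate as carry-over or as tailed intermediates of processing and decay. A cluster count depends both on how much of an RNA there is and on how much protein it holds, and these cannot be told apart from the lists. The labels do not say whether the total and polyA samples came from the same cultures.

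Single clusters are printed to show what the lists hold, and they range from no G to many in the polyA list. For genes that stood far apart and for TEF1, which was rich in both and was added after the values were seen, the widest coding or flanking cluster of at most 30 nt is given 5′ to 3′ in build R64, with every G in capitals. FAS2 and ARO1 encode enzymes of fatty acid and aromatic amino acid synthesis. ERD1 acts in retention of endoplasmic reticulum proteins, SAP4 associates with a phosphatase, and COS9 belongs to a subtelomeric family.
FAS2, total RNA list, chrXVI:113289-113317, plus strand: aaaGGctaatGacaaGaacGaatctGcca
ARO1, total RNA list, chrIV:706758-706787, plus strand: attGcaaaccaGcGtGtcaaaGaGtGtaac
TEF1, total RNA list, chrXVI:700814-700841, plus strand: atattGctttGtGGaaGttcGaaactcc
TEF1, polyA list, chrXVI:701116-701145, plus strand: tttatcaaGaaGGttGGttacaacccaaaG
SAP4, polyA list, chrVII:65186-65200, minus strand: caaaGtttctacaat
COS9, polyA list, chrXI:15321-15335, plus strand: GtcatGGGataaGGG
ERD1, polyA list, chrIV:1295465-1295479, minus strand: tatacttttccaaaa
The ERD1 cluster lies in the flank downstream of the stop codon and the others lie in coding exons. The polyA cluster of TEF1 holds about as much G as the total RNA clusters and that of COS9 more, those of SAP4 and ERD1 little or none, so these few do not stand for the composition of the lists given below.

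For structural RNAs the whole gene is printed, with the bases inside clusters in capitals, for the 3 highest tRNA families and the highest snoRNA, with SNR56 added after the values were seen as the lowest. The tRNAs had no cluster (Leu, Val) or 1 cluster (Asn) in the polyA list over all copies of the gene. A capital at an end alone marks a cluster that reaches in from the flank.
tRNA-Leu(UAA), total RNA list, chrXI:84208-84291, plus strand: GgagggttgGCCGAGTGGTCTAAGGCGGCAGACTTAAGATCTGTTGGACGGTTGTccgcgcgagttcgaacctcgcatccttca
tRNA-Val(AAC), total RNA list, chrV:469457-469530, plus strand: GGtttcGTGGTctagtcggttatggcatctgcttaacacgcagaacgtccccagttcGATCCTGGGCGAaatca
tRNA-Asn(GUU), total RNA list, chrXVI:810676-810749, plus strand: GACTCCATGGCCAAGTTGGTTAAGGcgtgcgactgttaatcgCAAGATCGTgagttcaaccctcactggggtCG
SNR81, total RNA list, chrXV:234346-234546, plus strand: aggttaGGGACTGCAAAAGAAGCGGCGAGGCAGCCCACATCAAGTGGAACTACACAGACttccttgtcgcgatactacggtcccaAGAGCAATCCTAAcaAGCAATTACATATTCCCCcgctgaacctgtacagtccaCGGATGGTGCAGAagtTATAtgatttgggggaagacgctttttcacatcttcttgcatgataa
SNR81, polyA list, same gene: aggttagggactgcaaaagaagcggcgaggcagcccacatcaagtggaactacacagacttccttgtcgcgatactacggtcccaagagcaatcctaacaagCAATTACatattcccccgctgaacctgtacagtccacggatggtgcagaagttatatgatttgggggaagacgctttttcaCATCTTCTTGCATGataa
SNR56, total RNA list, chrII:88190-88277, plus strand: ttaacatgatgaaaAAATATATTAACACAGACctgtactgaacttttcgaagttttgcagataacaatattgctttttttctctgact
SNR56, polyA list, same gene: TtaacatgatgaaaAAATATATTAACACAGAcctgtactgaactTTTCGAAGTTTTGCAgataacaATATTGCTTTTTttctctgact

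Clusters of total RNA were wider and richer in G. Their median width was 13 nt against 10 nt in the polyA list, and the mean was 15.4 against 11.4 nt. Clusters of at least 20 nt made up 21.0% of the total RNA list and 6.65% of the polyA list, and those of at least 30 nt made up 7.14% (3682 clusters) and 1.87% (1141 clusters). The total RNA list covered 794967 nt and the polyA list 693218 nt, although the polyA list had more clusters. Both starved polyA lists had a median of 11 nt.

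**Figure D1:**
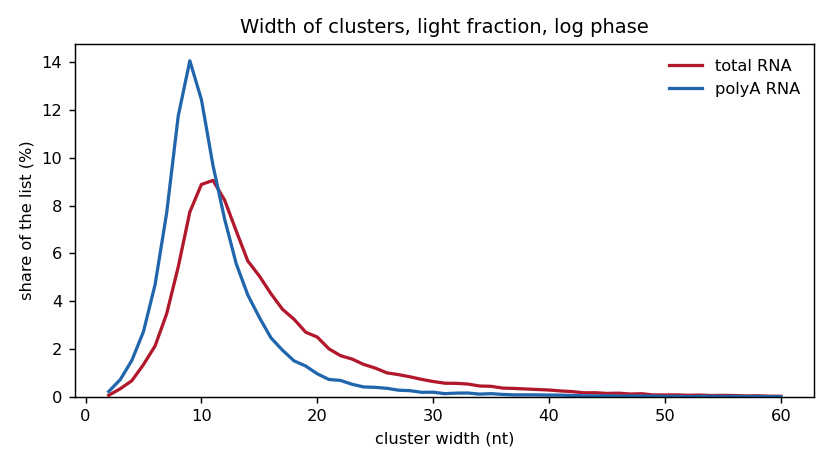
Share of each list (y axis, percent) at each cluster width (x axis, nt, shown to 60 nt) for total RNA (red) and polyA RNA (blue) of the light fraction in log phase. The polyA curve peaks at narrower widths than the total RNA curve, whose tail is higher from 20 nt on (21.0% against 6.65% of clusters).

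G made up 16.4% of clustered bases in total RNA and 6.81% in polyA RNA. Clusters with no G at all formed 23.0% of the total RNA list against 56.2% of the polyA list, 55.5% of the glucose list and 62.2% of the nitrogen list. The 3 polyA lists thus lay close together and the total RNA list apart. The difference was found at equal annotation: in coding exons G was 18.2% in total RNA and 8.44% in polyA RNA, where the annotated coding sequence holds 20.6%, and in downstream flanks it was 8.78% and 5.08%, where the annotated flanks hold 14.9%. Within polyA clusters G was scarce except at the last base. It took 2.75% of first bases, 4.66% of all bases but the last, and 29.0% of last bases in the polyA list, with 20.6% of the bases just before a cluster and 10.8% of those just after. In total RNA the same 5 positions held 13.5%, 16.1%, 20.3%, 25.8% and 17.7%. The sources used here do not name the nuclease, and its part in these values was not tested.

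Coding exons held more of the total RNA clusters, and the regions outside annotated genes held fewer. Shares are of all clusters in a list, and ratios divide the total RNA share by the polyA share. Coding exons of mRNA had 63.3% of total RNA clusters and 43.7% of polyA clusters, a ratio of 1.45 (1.42 to 1.47). The flank of 150 nt downstream of the stop codon, which stands for the 3′ untranslated region, had 10.0% and 15.1%, a ratio of 0.67 (0.64 to 0.69). The ratio was lower still against the starved polyA lists, at 0.49 for glucose and 0.52 for nitrogen. The flank of 100 nt upstream had 5.62% and 4.89% (1.15, 1.09 to 1.21), but this ratio turned to 0.79 when lists were scaled by their coding-exon clusters. Introns had 525 and 599 clusters, a ratio of 1.04 (0.92 to 1.17) whose interval includes 1. Intergenic sequence had 11.2% against 22.4% (0.50, 0.48 to 0.51), and the ratio was 0.51 and 0.49 against the starved lists. Sequence antisense to a gene had 3.72% against 10.3% (0.36, 0.34 to 0.38), and 0.84 and 0.58 against the starved lists, so its size depended on which polyA list was used.

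**Figure D2:**
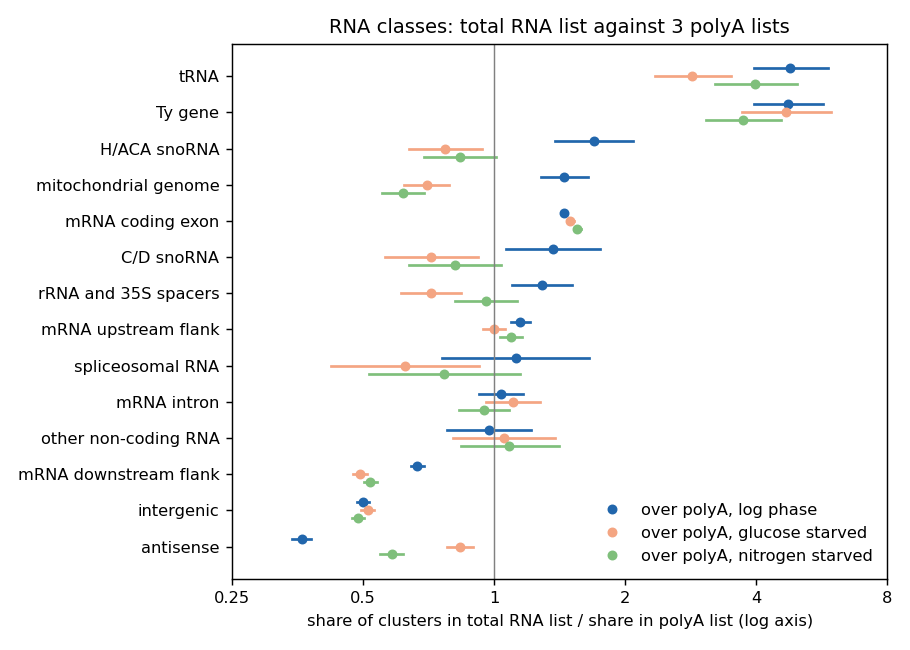
Share of clusters in the total RNA list divided by the share in each of 3 polyA lists (x axis, log scale) by RNA class (y axis), with 95% exact conditional binomial intervals as bars. tRNA and Ty genes lie above 1 and downstream flanks, intergenic and antisense sequence below 1 against every polyA list, whereas snoRNA and mitochondrial RNA lie above 1 only against the log-phase list.

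Among mRNA clusters alone, the downstream flank took 12.5% in total RNA (5170 of 41226) and 23.3% in polyA RNA (9194 of 39480), with 29.5% and 29.1% in the glucose and nitrogen lists. The shift was spread over genes. Of 2335 mRNA genes with at least 5 clusters in each list, 1684 had a lower downstream share in total RNA, 433 a higher one and 218 the same, and the median share was 11.1% against 20.0%. It was also present at every level of cover: when mRNA genes were ranked by covered length per gene length, averaged over both lists, and cut into 5 classes of equal size, the downstream share was 10.9% to 13.6% in total RNA and 21.2% to 25.6% in polyA RNA.

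Along the coding sequence, total RNA clusters leaned to the 5′ end. Positions were taken only in the 4778 mRNA genes with 1 coding exon and at least 500 nt. These held 35553 total RNA and 34146 polyA clusters, flanks included. Each of their coding sequences was cut into 10 equal parts. The first part held 13.6% of their coding clusters in total RNA against 9.54% in the polyA list (ratio 1.42, 1.35 to 1.50). Parts 6 to 9 had ratios between 0.84 and 0.90. Among the 10-nt bins around the start and stop codons, the largest difference lay on the start codon. In the first 10 nt of the coding sequence 357 total RNA clusters and 77 polyA clusters were centred, which is 10.0 and 2.26 per 1000 mRNA clusters placed, a ratio of 4.45. In the 10 nt just before it the ratio was 1.37, and in the next 10 nt after it 2.33. After the stop codon the ratio stayed between 0.40 and 0.70 in every 10-nt bin.

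**Figure D3:**
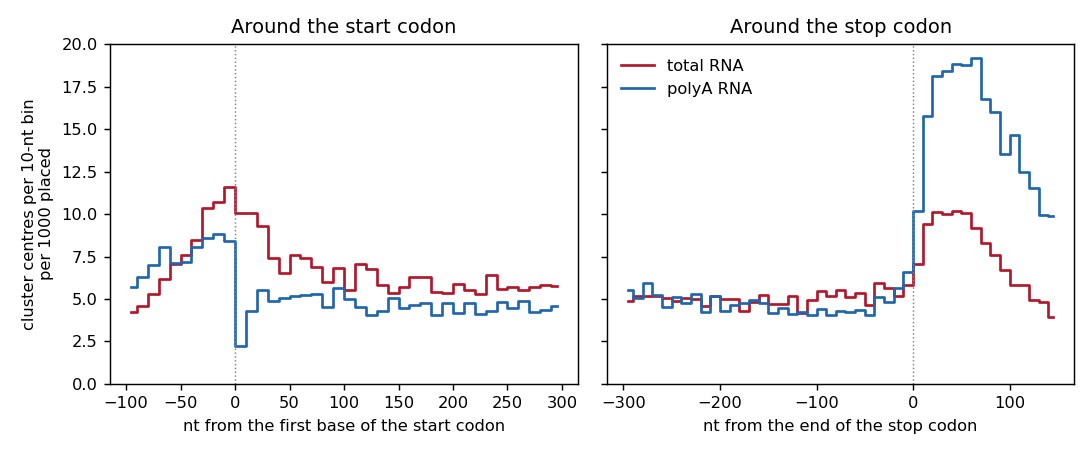
Cluster centres per 10-nt bin per 1000 mRNA clusters placed (y axis) against distance from the first base of the start codon and from the end of the stop codon (x axes, nt), for total RNA (red) and polyA RNA (blue). The polyA curve drops to 2.26 in the first bin of the coding sequence, where total RNA stays at 10.0, and is the higher one after the stop codon.

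The start codon was also compared with other codons of the same letters. Of 5636 start codons in single-exon genes, 12.3% (11.5 to 13.2) lay wholly inside a total RNA cluster and 3.46% (3.01 to 3.97) inside a polyA cluster. Of 51595 internal in-frame ATG codons, 4.78% lay inside a total RNA cluster and 1.46% inside a polyA cluster. Start codons were therefore covered more often than internal ATG codons in both lists. Both kinds were covered more often in total RNA, so that excess was not particular to the start codon. Over all 2740613 internal codons the shares were 5.10% and 2.86%. Stop codons differed less, with 6.49% (5.88 to 7.17) and 5.48% (4.92 to 6.11).

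Most sites were found in one list alone. Counting any overlap of 1 nt or more on one strand, 32.4% of total RNA clusters met a polyA cluster and 27.5% of polyA clusters overlapped a total RNA cluster. For comparison, 40.4% of polyA clusters overlapped the glucose list and 45.1% the nitrogen list, although both are shorter than the total RNA list. Overlap was highest on spliceosomal RNA (72.2% of its total RNA clusters), rRNA (64.2%) and downstream flanks (62.8%), and low on coding exons (24.7%), tRNA (23.2%) and Ty genes (13.7%). Of polyA clusters on tRNA, however, 82.0% overlapped a total RNA cluster. The share of overlap expected by chance was not computed, and it is larger where clusters lie densely. PolyA clusters covered 29.8% of spliceosomal RNA bases, whereas 2.86% of internal codons lay wholly inside a polyA cluster. How far the order of the classes follows the density of clusters was not tested. Shared sites rarely had the same ends: of 17361 overlapping pairs 267 were identical (1.54%), in 25.1% the polyA cluster lay inside the total RNA cluster, and in 17.2% the reverse held. The total RNA clusters that overlapped a polyA cluster were poor in G (10.0%, with 44.8% lacking G), and those that did not were richer (19.3%, with 12.6% lacking G). In coding exons these G shares were 12.1% and 20.3%, and in downstream flanks 5.93% and 13.9%. Overlapping clusters share bases with polyA clusters, which held 6.81% G, so this contrast is in part built in.

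Sequence around the cluster centre was searched for 3 motifs on the RNA strand, in windows of 30 nt, with the share of all annotated windows of that length given beside. Matches describe letters only, and TTTTT and TATATA can both occur in a window. The annotated windows were not matched to the clusters in base composition. Of the clusters in each list 100% held a T. In downstream flanks T made up 41.5% of clustered bases in total RNA and 44.3% in polyA RNA, against 35.5% annotated. How far the motif shares follow from composition was not tested. In coding exons TTTTT lay in 4.82% of total RNA windows and 8.52% of polyA windows, where 4.47% of annotated coding windows hold it. TATATA lay in 0.74% and 1.50%, against 0.58% annotated. In downstream flanks TATATA lay in 15.5% and 16.2% of windows, above the 9.80% of annotated flank windows in both lists. TGTANATA, 1 form of the sites bound by Puf proteins, lay in 3.31% (2.85 to 3.83) and 2.48% (2.18 to 2.82) of downstream windows, against 2.32% annotated.

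Transfer RNA, the adaptor of translation, was far better represented in total RNA. Its 538 clusters in total RNA stood against 133 in the polyA list (ratio 4.79, 3.95 to 5.83), and the ratio was 2.85 and 3.98 against the glucose and nitrogen lists. By covered length it was 2.83, and here, unlike in the whole list, polyA clusters were the wider ones: they had a median of 14 nt and 41 of 133 reached 20 nt, while its total RNA clusters had a median of 12 nt and 80 of 538 did so. Of 275 nuclear tRNA genes 266 had a cluster in total RNA and 101 in polyA RNA. Families were formed by anticodon, and 1 serine tRNA gene whose anticodon was not read was kept as a family of its own. Of these 42 families, 39 had more clusters in total RNA, 1 had more in polyA RNA and 11 had none in polyA RNA. Copies of a tRNA gene share their sequence, and 32.7% of total RNA and 32.3% of polyA clusters on tRNA had a central 25-nt sequence found once in the genome. Limited to those, 176 and 43 clusters, the ratio was 4.84 (3.45 to 6.93).

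The background for single genes is needed for the counts that follow. A gene was counted as higher or lower when its covered length per 100000 nt of clustered sequence differed at least 2-fold after 20 nt had been added to each covered length. Of 5941 genes and tRNA families with a cluster in either list, 14.0% were higher and 22.7% lower in total RNA, and the median log2 ratio was -0.12. Among tRNA families 25 of 42 were higher and 1 was lower, with a median log2 ratio of +1.35. tRNA-Leu(UAA), with 7 genes, had 9 clusters covering 362 nt in total RNA and 0 in the log-phase polyA and glucose lists, with 3 in the nitrogen list. In the copy printed above, its cover was mainly 1 long stretch from the D arm through the anticodon. tRNA-Val(AAC), with 14 genes, had 21 clusters in total RNA and 0 in all 3 polyA lists. tRNA-Asn(GUU), with 10 genes, had 20 clusters, against 1 in log-phase polyA RNA, 3 after glucose starvation and 11 after nitrogen starvation. At the other end, tRNA-Arg(CCG), the family counted as lower, had 2 clusters of 29 nt in all against 1 of 82 nt (log2 ratio -1.26). tRNA-Val(CAC) had 4 clusters in each list. tRNA-Gln(UUG), the one family with more clusters in polyA RNA, had 16 against 18 and nearly equal covered length, 208 against 214 nt.

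Ty elements, the retrotransposons of yeast, had 607 clusters in total RNA where the polyA list had 152 (ratio 4.73, 3.95 to 5.68). Their copies are nearly alike, and 3.13% of the total RNA clusters and 11.2% of the polyA clusters had a unique central 25-nt sequence. Among these, 19 clusters stood against 17, and the ratio was 1.32 (0.65 to 2.71). They are too few to show whether Ty clusters on unique sequence differed between the lists. The sources used here do not say how the authors treated reads that match several places.

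The other structural RNAs differed little from the polyA list or changed sides with the polyA list used. H/ACA snoRNAs, which guide pseudouridylation, had 233 clusters against 163 (1.69, 1.38 to 2.08), but 0.77 and 0.83 against the glucose and nitrogen lists. C/D snoRNAs, which guide 2′-O-methylation, had 143 against 124 (1.36, 1.07 to 1.75), with 0.72 and 0.81 against the starved lists and 0.94 when scaled by coding-exon clusters. All 29 H/ACA and all 47 C/D snoRNAs had a cluster in total RNA, and 29 and 45 had one in polyA RNA. Clusters covered 36.8% of H/ACA snoRNA bases in total RNA and 24.8% in polyA RNA, and 37.9% and 27.3% of C/D snoRNA bases. SNR81, an H/ACA snoRNA, had 5 clusters covering 50.2% of it in total RNA and 2 covering 10.4% in polyA RNA. SNR56, a C/D snoRNA, had 1 cluster covering 20.5% in total RNA and 4 covering 51.1% in polyA RNA. The stretch in capitals in the total RNA sequence of SNR56 was also covered in polyA RNA except for its last base. With so few clusters the intervals of the count ratio of SNR81 and SNR56 include 1.

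Ribosomal RNA and its spacers had 332 clusters against 305 (1.29, 1.099 to 1.51). The ratio was 0.72 and 0.96 against the starved lists and 0.89 when scaled by coding-exon clusters, and no rRNA cluster had a central 25-nt sequence unique in the genome. Spliceosomal RNAs had 54 against 57 clusters (1.12, 0.76 to 1.66), and none of the 6 annotated forms was past 2-fold. The U2 RNA LSR1 had 411 of its 1175 bases in total RNA clusters and 410 in polyA clusters, with 232 bases in common. U6 RNA, SNR6, was covered over 43.8% and 16.1%, U1 RNA, SNR19, over 25.0% and 35.6%, and U4 RNA, SNR14, over 25.0% and 26.9%. The shorter form of U5 RNA, SNR7-S, had 4 against 3 clusters and the longer form, which overlaps it, had 1 against 1. Telomerase RNA, TLC1, which does carry a tail in a precursor form, was covered over 35.7% and 23.2%. The RNase P RNA RPR1 was covered over 33.9% and 15.4%, the RNase MRP RNA NME1 over 25.0% and 27.6%, and the signal recognition particle RNA SCR1 over 32.0% and 25.5%. SRG1 had 12 clusters against 6 and ICR1 had 7 against 11, but SRG1 runs into the start of SER3 on the same strand, so its count is uncertain. The mitochondrial genome had 578 clusters against 472 (1.45, 1.28 to 1.64), and 0.70 and 0.62 against the glucose and nitrogen lists.

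Among mRNA genes, total RNA clusters were gathered on fewer genes. Of 5634 mRNA genes with a cluster in either list, 79 had clusters in total RNA alone, 630 in polyA RNA alone and 4925 in both. The 100 genes with the most clusters held 12.5% of mRNA clusters in total RNA and 5.94% in polyA RNA. The upper 50% of mRNA clusters lay in 839 genes in total RNA and in 1496 in polyA RNA. The highest count for a gene was 140 in total RNA and 36 in polyA RNA, and 74 genes had at least 40 clusters in total RNA against 0 in polyA RNA. Of these 5634 genes, 728 (12.9%) were at least 2-fold higher and 1337 (23.7%) at least 2-fold lower in total RNA. Their median log2 ratio was -0.16, and relative to the median of all genes the counts were 883 and 1132. Without the flanks the 2 counts were 1041 and 1058, so the excess of lower genes was not present in coding sequence alone. By cluster counts, the exact interval of the ratio lay above 1 for 499 genes (8.86%) and below 1 for 193 (3.43%). Across the genes, cluster counts in the 2 lists had a Spearman correlation of 0.59, a description over genes that share both libraries.

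**Figure D4:**
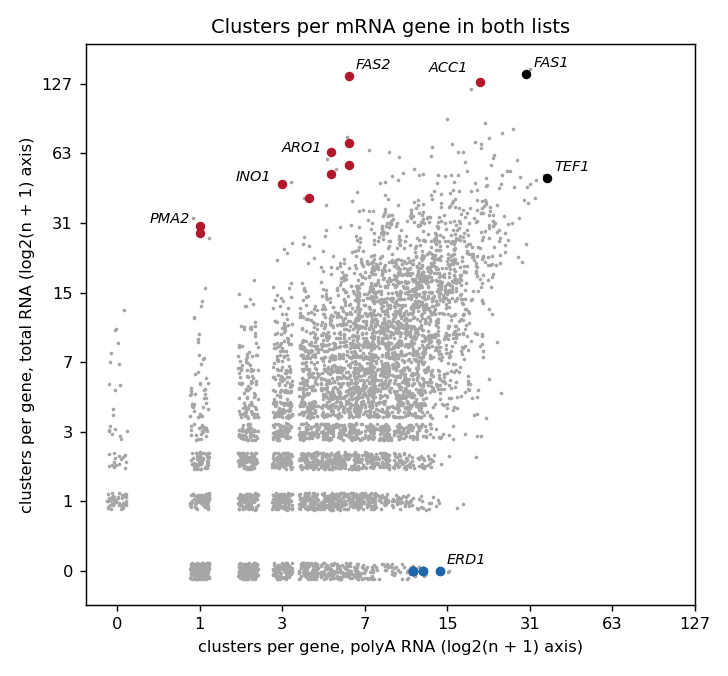
Clusters per mRNA gene in total RNA (y axis) against polyA RNA (x axis), both as log2(n + 1), with a small fixed jitter on the grey points. Red and blue points are the 10 genes with the highest lower limit and the 10 with the lowest upper limit of the count ratio, several of which coincide, and black points are TEF1 and FAS1; total RNA reaches 140 clusters on a gene where polyA RNA stops at 36.

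Genes with dense cover were more often higher in total RNA. In the sparsest of the 5 classes of covered length per gene length, 2.93% were higher and 41.6% lower in total RNA, with a median log2 ratio of -0.81. In the densest, 27.2% were higher and 3.64% lower, with a median of +0.53. The 3 classes between had medians of -0.63, -0.30 and +0.15, in order of density. Density averages the same covered lengths that form the ratio, so the class of a gene and its ratio are not independent. How far the trend follows from that was not tested. The longest genes stood apart: of the 467 genes with at least 3000 nt, 28.3% were higher and 11.1% lower (median +0.41). The 5 classes of shorter genes had medians from -0.11 to -0.39. Over the 5634 mRNA genes the log2 ratio and gene length had a Spearman correlation of 0.02. Gene groups below are given with the number of members in the densest or the sparsest class, or in both. Density moved with the ratio, but both come from the same values, and the part of density in each group was not tested.

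The genes farthest above 1 encode large or metabolic enzymes. FAS2, the alpha subunit of fatty acid synthase (chrXVI:108652-114315), had 137 clusters in total RNA against 6 in log-phase polyA RNA, 9 after glucose starvation and 1 after nitrogen starvation; polyA values below keep that order. The ratio per list size to the log-phase list was 27.0 (12.1 to 74.9), and 35.5% of its coding bases lay in total RNA clusters against 0.88% in polyA clusters. FAS1, the beta subunit of the same enzyme, had 140 clusters and 30, 14 and 6, a ratio of 5.52 (3.70 to 8.49). ACC1, which makes the malonyl-CoA that both subunits use, had 130 and 20, 9 and 4 (7.69, 4.78 to 13.01). In log-phase polyA RNA the median gene had 6 clusters. By count FAS2 was thus at the median and FAS1 and ACC1 were above it, FAS1 with 5 times as many clusters as FAS2. Counts are not scaled by gene length, and FAS2 is 5664 nt long. By share of coding bases in log-phase polyA clusters, FAS2 had 0.88%, FAS1 4.63% and ACC1 3.16%.

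INO1, inositol-3-phosphate synthase (chrX:134332-135933), had 46 clusters in total RNA and 3, 5 and 4 in the polyA lists, and 47.0% of its coding bases were covered in total RNA against 0.56%. PMA2, the minor plasma membrane proton pump, had 30 and 1, 0 and 2, and 25 of the 30 had a unique central 25-nt sequence, so they were not shared with its paralog PMA1 at that length. TKL2, the minor transketolase, had 28 and 1, 1 and 1, and all 28 were unique. Neither PMA2 nor TKL2 had a coding base under a log-phase polyA cluster. Others among the 10 genes with the highest lower limit were ARO1 (64 against 5), GLC3 (51 against 5), GSY2 (56 against 6) and ARG1 (40 against 4). In the nitrogen list ARG1 had 23 clusters.

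The 10 genes farthest below 1 had 0 clusters in total RNA, and 11 to 14 in the polyA list. ERD1 and SAP4 had 14 each, with a lower limit of 2.80 for the ratio of polyA to total RNA. COS9, IME1 and SLI15 had 12 each (lower limit 2.35). IME1 is the master regulator of entry into meiosis and SLI15 a subunit of the chromosomal passenger complex. BEM4, which acts in Rho1 signalling, UBA2, which activates the SUMO protein, YTA6, an AAA-type ATPase, and the uncharacterised YJL206C and YOL014W had 11 each (lower limit 2.12). In the starved polyA lists these 10 genes had between 1 and 9 clusters, so each was also present there.

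Some genes were rich in both lists. TEF1 and TEF2, identical genes for translation elongation factor 1A, had 49 and 46 clusters in total RNA and 36 and 33 in polyA RNA, and 6 of the 49 and 9 of the 36 TEF1 clusters were unique, so the copies cannot be told apart. ECM33, a cell wall protein, had 45 and 33, and EGT2, which acts in cell separation, had 35 and 30. Clusters covered 53.3% of TEF1 coding bases in total RNA and 35.1% in polyA RNA. The intervals of TEF1, TEF2 and ECM33 began just above 1 (1.03, 1.03 and 1.01) and that of EGT2 included 1.

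The strain's deleted genes gave a check of the labels and 1 further difference. LYS2 and URA3 had 0 clusters in all 4 light lists, and LEU2 had 0 in total RNA and 1 in each polyA list, none of which covered a coding base. HIS3, of which the his3-delta-1 allele lacks an internal piece, had 12 clusters in total RNA, 0 in the log-phase polyA and glucose lists and 3 in the nitrogen list. Counted from the first base of the start codon, the total RNA clusters lay from position -25 to 284 and from 590 to 750, with none in between. The labels give mating type a, yet genes specific to alpha cells had clusters in total RNA and polyA RNA: MF(ALPHA)1 had 18 and 12, SAG1 21 and 18 and STE3 16 and 13, while BAR1 and AGA2, specific to a cells, had 0 and 1, and 3 and 0, STE2 had 6 and 9 and STE6 had 4 and 11. These genes were chosen after their values were seen, and the mating type was not settled.

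Of the 5 lists of amino acid synthesis, 4 had no or 1 lower gene and the methionine list was mixed, where the background was 12.9% higher and 23.7% lower. Of 10 arginine genes 7 were higher and 0 lower (median log2 ratio +2.24), and 7 lay in the densest class. ARG56, which encodes 2 mitochondrial steps, had 54 clusters against 11, and ARG7 25 against 4. Gene lists were compared with the log-phase polyA list alone, and cover differed in the nitrogen list. There clusters held 26.2% of ARG7 coding bases (23.0% in total RNA), 23.5% of ARG1 (38.3%) and 6.13% of ARG56 (29.4%). In log-phase polyA RNA the shares were 0%, 1.98% and 3.09%. Of 14 genes of aromatic amino acid synthesis 8 were higher and 0 lower (+1.40), with 3 in the densest class; TRP5, tryptophan synthase, had 35 against 5, TRP3 18 against 5 and ARO2 12 against 2. Of 14 histidine and lysine genes 9 were higher and 1 lower (+1.38), with 5 in the densest class: HIS4 had 61 against 9 and HIS7 13 against 2, whereas HIS6 had 0 against 6. Branched-chain genes had 5 of 11 higher and 0 lower (+0.82), 7 in the densest class, with LEU4 at 46 against 9. The methionine and sulfate genes were mixed, with 5 of 20 higher and 4 lower (+0.35) and 9 in the densest class: MET6, methionine synthase, had 70 against 21 and MET1 had 1 against 7. Aminoacyl-tRNA synthetases, which load tRNA with these amino acids, had 10 of 19 higher and 0 lower (+1.04) although none lay in the densest class. Among them ILS1 had 50 against 11 and VAS1 40 against 11.

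The lists of trehalose and glycogen metabolism and of chaperones had medians above +1. Of 20 genes of trehalose and glycogen metabolism 16 were higher and 1 lower (+1.91), with 9 in the densest class; TPS1, trehalose phosphate synthase, had 36 against 7 and GPH1, glycogen phosphorylase, 52 against 10. Of 30 heat shock and chaperone genes 17 were higher and 0 lower (+1.17), with 24 in the densest class: KAR2, the chaperone of the endoplasmic reticulum, had 57 against 10, HSP78 36 against 7 and HSP26 24 against 3, and SSA3 had 8 in total RNA and 0 in all 3 polyA lists. Phospholipid genes, with INO1 at their head, had 8 of 14 higher and 1 lower (+1.16), with 8 in the densest class. For fatty acid synthesis and elongation the count was 4 of 13 higher and 1 lower (+0.48), with 8 in the densest class, so FAS2, FAS1 and ACC1 did not stand for the group. Glycolytic genes had 7 of 21 higher and 0 lower (+0.59), with 17 in the densest class: PYK2 had 25 against 3, HXK1 41 against 9 and PFK1 40 against 13. Among nuclear respiratory chain genes 18 of 41 were higher and 1 lower (+0.74), with 38 in the densest class, and in the tricarboxylic acid cycle 7 of 21 were higher and 0 lower (+0.71), with 13 there.

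Cytosolic ribosomal protein genes stayed close to equal cover although they were densely covered. Of 138 genes, 137 of them in the densest class, 5 were higher and 1 lower, with a median log2 ratio of +0.14, which turned to -0.11 with clusters under 10 nt left out. RPL9B had 18 clusters against 7, while RPS28B had 5 against 9. Of 36 translation factor genes 5 were higher and 3 lower (+0.27), with 16 in the densest class, led by YEF3, elongation factor 3, with 71 against 19. Their 13.9% higher was near the background of 12.9%, and their 8.33% lower was under the background of 23.7%. EFT1 and EFT2, identical genes for elongation factor 2, had 68 against 16 and 66 against 17, of which 10 and 10 total RNA clusters were unique. Core histone genes, whose yeast mRNAs are polyadenylated, had 0 of 9 higher and 0 lower (+0.01), and all 9 lay in the densest class.

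Lists of meiosis, chromosome segregation and DNA replication had the lowest medians. Of 43 meiosis and sporulation genes with a cluster, from 53 listed, 27 were lower and 1 higher (-1.20), and 36 lay in the sparsest class. MSH4, a meiotic mismatch repair homologue, had 0 against 10 and IME1 0 against 12, whereas SPS100, a spore wall gene, had 11 in total RNA and 0 in all 3 polyA lists. Of 55 kinetochore, spindle and cohesin genes 28 were lower and 3 higher (-1.01), with 25 in the sparsest class: RAD61 had 0 against 10, IRR1, a cohesin subunit, 0 against 7 and SCC2, the cohesin loader, 0 against 6. Of 40 genes of DNA replication origins and the helicase 20 were lower and 0 higher (-1.003), with 21 in the sparsest class. DPB11, which acts in origin firing, had 3 against 21, RFA1, a subunit of replication protein A, 1 against 11 and ORC2 1 against 9. Cyclins had 5 of 13 lower and 0 higher (-0.57), 2 in the densest and 1 in the sparsest class, with the B-type cyclin CLB5 at 1 against 12.

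Ribosome biogenesis genes had 35 of 77 lower and 4 higher (-0.88), with 25 in the sparsest class: NOC4 had 0 against 10, ENP1 0 against 7 and ERB1 1 against 8. Of 49 splicing factor genes 16 were lower and 1 higher (-0.78), with 21 in the sparsest class, among them HSH49 with 0 against 8 and PRP11 with 0 against 6. RNA polymerase subunits had 9 of 31 lower and 5 higher (-0.33), where 8 lay in the densest and 7 in the sparsest class, with RPC82 of RNA polymerase III at 1 against 14. The transcription machinery had 16 of 63 lower and 4 higher (-0.45), with 14 in the sparsest class; TAF3 had 0 against 10, while TRA1, the large subunit of SAGA and NuA4, had 51 against 11. Genes of mRNA decay had 8 of 42 lower and 5 higher (-0.14), 7 in the densest and 6 in the sparsest class, where the exonuclease gene XRN1 had 39 against 13 and SKI7 1 against 8. Mitochondrial ribosomal proteins (15 of 70 lower, 7 higher, -0.26, with 16 in the densest class) and the nuclear pore (5 of 32 lower, 3 higher, -0.15, with 5 in the sparsest class) were near or under the background in both directions. Against the background of 23.7% lower, the transcription machinery was near it at 25.4% and mRNA decay under it at 19.0%. RNA polymerase subunits had 29.0% lower, and their 16.1% higher was also above the background of 12.9%.

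The remaining lists lay between these. Purine synthesis had 7 of 17 higher and 1 lower (+0.88), the pentose phosphate pathway 5 of 11 higher and 1 lower (+0.87), each with 6 in the densest class, and the proton pumps of plasma membrane and vacuole 6 of 17 higher and 0 lower (+0.50) and 14 in the densest class, with VMA1 at 63 against 13. Amino acid permeases had 5 of 20 higher and 2 lower (+0.63, with 7 in the densest class), vacuolar proteases 2 of 10 higher and 0 lower (+0.81, with 5 there) and cell wall genes 7 of 36 higher and 2 lower (+0.47, with 24 there), among them GSC2 with 83 against 15 and FKS1 with 81 against 25. Sterol synthesis had 3 of 23 higher and 3 lower (+0.36, with 7 in the densest class), the proteasome 4 of 32 higher and 0 lower (+0.37, with 10 there), and hexose transport 1 of 14 higher and 4 lower (+0.03, with 6 in the densest and 5 in the sparsest class).

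**Figure D5:**
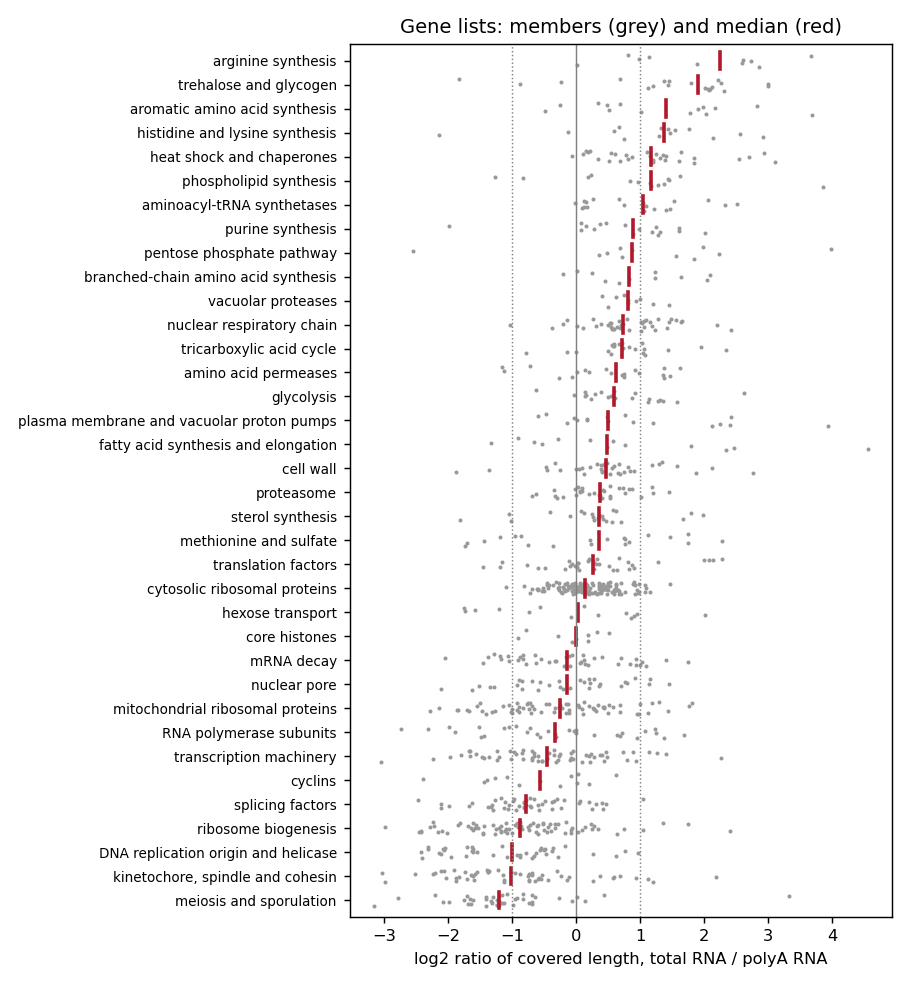
Log2 ratio of covered length, total RNA over polyA RNA (x axis), for the members with a cluster (grey points) and the median (red bar) of 36 gene lists (y axis, sorted by median). Dotted lines mark a 2-fold difference in either direction; arginine synthesis is highest with a median of +2.24 and meiosis lowest with -1.20.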

How the data were processed

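The members and gene lists were chosen with earlier results of these data known. Reads were aligned with Bowtie 0.12.7 to R64, per the submitters' processing notes. The sources used here name neither the nuclease nor the program and limits by which clusters were called, and do not say what was done with reads that match several places. The authors deposited 1 cluster list per group, whose score column is 0 throughout. Cluster names carry running numbers, and 52.0% of the numbers below the largest occur in the total RNA list, 82.0% in the polyA list, so the lists may have been filtered to different degrees.

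Here starts and ends were read as BED intervals in R64, and each cluster was given to a RefSeq gene on its strand: structural RNAs before mRNA, gene bodies before flanks (100 nt upstream, 150 nt downstream), since the annotation holds no untranslated regions. Ratios of counts, divided by list size, carry 95% intervals from the conditional binomial (Clopper-Pearson, exact), and shares carry Wilson 95% intervals. They treat clusters as independent, although copies of a gene share sequence, and were not corrected for the number of genes. The tools were Python 3.11.15, NumPy 2.4.6, SciPy 1.17.1 and matplotlib 3.10.9. Genes were named by rule: the 10 with the highest lower limit and the 10 with the lowest upper limit of the count ratio, up to 4 members per gene list by absolute log2 ratio (at least 5 clusters in a list), the 5 richest in both lists, the 3 highest and 3 lowest tRNA families and snoRNAs (at least 3 clusters in a list), single non-coding RNAs and the strain's deleted genes. Some genes the rule selects are not reported here. Alternatives changed the flanks, added length, scaling, minimum width and overlap.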

Additional observations from a re-analysis of the deposited data

How the results depend on the processing

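No paired analysis was possible because each group has 1 list for both replicates, and for the same reason no replicate could be left out. A stricter score could not be set, since every score is 0. Scaled by coding-exon clusters, the ratio of total RNA to polyA RNA was 0.79 for upstream flanks, 0.94 for C/D snoRNA and 0.89 for rRNA, each on the other side of 1, and 0.46 for downstream flanks, 3.31 for tRNA, 1.17 for H/ACA snoRNA, 3.27 for Ty genes, 1.00 for the mitochondrial genome, 0.25 for antisense and 0.35 for intergenic sequence. By covered length it was 1.48 for coding exons, 0.56 for downstream flanks, 2.83 for tRNA, 1.29 for H/ACA snoRNA, 1.25 for the mitochondrial genome, 0.39 for antisense and 0.48 for intergenic sequence. With clusters of at least 10 nt it was 0.58 for downstream flanks, 3.36 for tRNA, 1.23 for H/ACA snoRNA, 1.27 for the mitochondrial genome and 0.40 for antisense sequence. Without flanks it was 0.64 for intergenic sequence. With unique central 25-nt sequences, an alternative added after seeing the data, it was 1.42 for coding exons, 1.32 for Ty genes, 0.32 for antisense and 0.48 for intergenic sequence. The cause of these moves was not tested.

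Coding exons held 74.6% of total RNA and 60.0% of polyA mRNA clusters with flanks of 200 and 300 nt, and 80.7% and 67.1% with clusters of at least 10 nt; downstream flanks held 15.0% and 28.0%, and 11.5% and 24.0%. G was 16.9% and 7.66% in clusters of at least 10 nt, another added alternative. The median width stayed 3 nt greater in total RNA for clusters of at least 10 nt and for coding exons alone. Shared sites were 27.3% of total RNA and 23.1% of polyA clusters when 50% of the shorter cluster had to overlap, and 23.4% of total RNA clusters of at least 10 nt. With 50 nt added, 430 mRNA genes were 2-fold higher and 692 lower. Group medians without flanks were +2.09 for trehalose and glycogen, +1.45 for aminoacyl-tRNA synthetases, +1.41 for chaperones, -0.87 for meiosis and +0.33 for ribosomal proteins. By cluster counts they were +1.43 for chaperones, -1.34 for meiosis and +0.51 for ribosomal proteins. With 5 nt added they were -1.11 for ribosome biogenesis, -1.03 for splicing, -1.66 for the kinetochore and -2.34 for meiosis, and with clusters of at least 10 nt -1.35 for meiosis and -0.11 for ribosomal proteins. GAL2 went from -1.75 to +0.29 without flanks.

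Depth is known here as list length alone, and read totals were not used. For genes with few clusters, a 2-fold difference can arise from counting error, and a count of 0 does not show that an RNA was unbound.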
